A study of Homo sapiens with 16 samples.

Results

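The 10 genes described here encode the PGC1 family of coactivators and the nuclear factors that work with it on mitochondrial biogenesis. They were taken by symbol from a table of 34228 genes measured by RNA-Seq in 2 melanoma cell lines resistant to BRAF inhibitors (BRAFi-R), 451Lu-R and 1205Lu-R. The members are the coactivators PPARGC1A, PPARGC1B and PPRC1, the estrogen-related receptors ESRRA and ESRRG, the nuclear respiratory factors NRF1 and GABPA, and the mitochondrial transcription factors TFAM, TFB1M and TFB2M. All 10 were present in the table. The study asked how blocking CoREST, a chromatin repressor complex that carries the histone deacetylases HDAC1 and HDAC2 and the demethylase LSD1, changes gene expression in such cells. Each line was given 2.5 μM corin, an inhibitor of both enzyme activities of CoREST, or its vehicle DMSO for 24 h, with 2 libraries in each of the 4 groups. Both lines had been made resistant by growth in rising doses of the BRAF inhibitor PLX4032 and were kept in 5 μM of it, so the DMSO cells are resistant cells too. Each line is a single cultured line, and the labels do not say whether the 2 libraries of a group came from separate cultures, so the p-values measure only the spread between these libraries. Samples given PLX4032 as a treatment were not analysed here. The labels of the libraries used name DMSO or corin only, with no PLX4032 for the 24 h of treatment.

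PGC1 coactivators do not bind DNA themselves but are recruited by transcription factors, among them the estrogen-related receptors and the nuclear respiratory factors, to genes of oxidative metabolism. The nuclear respiratory factors in turn act on nuclear genes of the respiratory chain and on the factors that are imported into mitochondria to copy and transcribe mitochondrial DNA (mtDNA). In melanoma, PPARGC1A is known as a target of MITF, the master regulator of the melanocyte lineage, and tumors with high PPARGC1A are known for their reliance on oxidative phosphorylation.

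The libraries held between 9516687 and 11797788 estimated counts. In 451Lu-R the 7 melanocytic markers summed to between 12908 and 12921 CPM under DMSO and between 11736 and 11764 CPM under corin. PMEL made up most of these sums (8207 and 7434 CPM). SOX10 fell from 737 to 241 CPM, and of the 7 markers 1 was called higher and 6 lower. The 5 markers of undifferentiated melanoma summed there to between 22.2 and 24.1 CPM under DMSO and between 425 and 429 CPM under corin, with 5 of 5 called higher. Most of that rise was NGFR, which went from 1.03 to 362 CPM, while AXL reached 2.45 CPM. In 1205Lu-R the melanocytic markers summed to between 7.56 and 8.77 CPM under DMSO and between 16.0 and 18.3 CPM under corin, with SOX10 and TYR at 0 counts in all 4 libraries. The undifferentiated markers summed there to between 1745 and 1755 CPM under DMSO and between 1038 and 1062 CPM under corin, with 1 of 5 called higher (NGFR) and 4 lower. Of the 7 melanocytic markers, 5 had no more than 3 counts in each 1205Lu-R DMSO library and 4 in each corin library, so most defining melanocytic transcripts were not detectable in that line at this depth. Of 6 markers of blood, epithelial, endothelial and stromal cells, 3 or more had no more than 3 counts in every library of each group, with LUM in 451Lu-R (46.1 CPM under DMSO, 106 CPM under corin) and PECAM1 in 1205Lu-R (9.82 and 7.01 CPM) the highest of the others. CPM here are counts per 1000000, with library sizes adjusted by TMM normalization factors. The counts come from bulk RNA, so fewer expressing cells and less RNA per cell cannot be told apart.

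The genes lie on 8 chromosomes of GRCh38, placed here with GENCODE 44. PPARGC1A is at chr4:23755041-23904089 on the minus strand, PPARGC1B at chr5:149730298-149855022 on the plus strand and PPRC1 at chr10:102132994-102150333 on the plus strand. ESRRA is at chr11:64305497-64316743 (plus) and ESRRG at chr1:216503246-217137755 (minus). NRF1 is at chr7:129611720-129757082 (plus) and GABPA at chr21:25734570-25772460 (plus). TFAM is at chr10:58385345-58399220 (plus), TFB1M at chr6:155256134-155314493 (minus) and TFB2M at chr1:246540561-246566261 (minus). Exons of ESRRA, GABPA and TFB1M overlap those of TRMT112, ATP5PF and TIAM2 on the opposite strand by 284, 692 and 1264 bases. Whether counting used strand is not given in the sources used here, so reads in these stretches cannot be told apart. TFB1M also shares 591 exonic bases, and NRF1 112, with a gene on the same strand.

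Promoters were read from RefSeq (GRCh38.p14), which held 17 start sites for 9 of the members and none for NRF1. The 250 bases before each start were searched on both strands for 7 short motifs. The NRF1 core, GCGCATG, was found in 3.77% of all 35116 promoters and in those of TFB1M, TFB2M and ESRRA. The E-boxes CACGTG, which is palindromic, and CATGTG were both searched as the class of motif that MITF binds. CACGTG was found in 6.34% of all promoters and, among the members, in the more distal PPARGC1A promoter. There it overlaps the shorter motif TGACG (21.2% of all promoters). The following stretches are shown because TFB1M and TFB2M share a motif but moved in opposite directions, and because PPARGC1A had the largest change among the members tested. All are written 5′ to 3′ on the gene's own strand, and capitals mark the motif, which in TFB1M is the NRF1 core on both strands with the copies overlapping and in TFB2M is the core read on the opposite strand.
TFB1M, chr6:155314567-155314656, minus strand: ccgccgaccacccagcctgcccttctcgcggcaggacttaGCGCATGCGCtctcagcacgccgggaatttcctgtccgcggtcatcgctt
TFB2M, chr1:246566262-246566315, minus strand: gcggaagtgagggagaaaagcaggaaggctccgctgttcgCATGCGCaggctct
PPARGC1A, chr4:24472983-24473068, minus strand: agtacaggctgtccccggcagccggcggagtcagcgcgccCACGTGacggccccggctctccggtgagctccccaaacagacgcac
The distal PPARGC1A start lies outside the GENCODE 44 span of the gene. Its proximal promoter held the other E-box searched, CATGTG (9.42% of all promoters). The ESRRA promoter and some of the ESRRG starts held CATGTG too. The GABPA motif CCGGAAGT (3.42% of all promoters) was found in the GABPA promoter, and the estrogen-related receptor motif AAGGTCA (3.44%) at 1 ESRRG start. The promoters of PPARGC1B, PPRC1 and TFAM held none of the 7 motifs, and no member held TGACGTCA (1.65% of all promoters). These are matches of letters and were not tested as binding sites.

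PPARGC1A, the founding member of the family, rose in both lines. Its 451Lu-R level was 4.56 and 3.52 CPM under DMSO against 30.8 and 31.3 CPM under corin. The groups were well apart, with a log2 fold change of 2.95 ± 0.13 (SE, n = 2 libraries per group, adjusted p = 4.49e-14 in edgeR's quasi-likelihood test). The 1205Lu-R DMSO libraries held 1 and 0 of its counts, and the corin libraries 32 and 52 (3.22 and 4.48 CPM). From the pooled counts this is a ratio of 81.1, with a 95% counting interval from 14.2 to 3240 (exact, counting error only), and edgeR called the gene higher (adjusted p = 1.83e-08). PPARGC1A passed the filter on low counts there only through its corin libraries, so that call is no separate support for a rise. With corin, 1205Lu-R thus reached about the level of 451Lu-R with DMSO.

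PPRC1, a coactivator known for its induction by serum and growth signals, fell in both lines. In 451Lu-R it went from 48.0 and 51.8 CPM with DMSO to 11.1 and 12.4 CPM with corin, which is -2.07 ± 0.092 (SE) on the log2 scale (edgeR adjusted p = 4.97e-14). In 1205Lu-R it went from 57.3 and 54.5 CPM to 22.7 and 21.3 CPM, which is -1.30 ± 0.074 (SE) on the log2 scale (edgeR adjusted p = 4.95e-13). PPARGC1B, the coactivator closest in sequence and role to PPARGC1A, moved in different directions. In 451Lu-R it fell from 14.3 and 11.6 CPM to 9.88 and 9.43 CPM, which is -0.41 ± 0.14 (SE) on the log2 scale (edgeR adjusted p = 0.0115), and in 1205Lu-R it rose from 12 and 12.4 CPM to 17.0 and 20.1 CPM, which is 0.66 ± 0.12 (SE) on the log2 scale (edgeR adjusted p = 3.30e-05). The fall in 451Lu-R was small and missed the threshold with DESeq2 (adjusted p = 0.170) and without the first 451Lu-R DMSO library (edgeR adjusted p = 0.188).

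**Figure D1:**
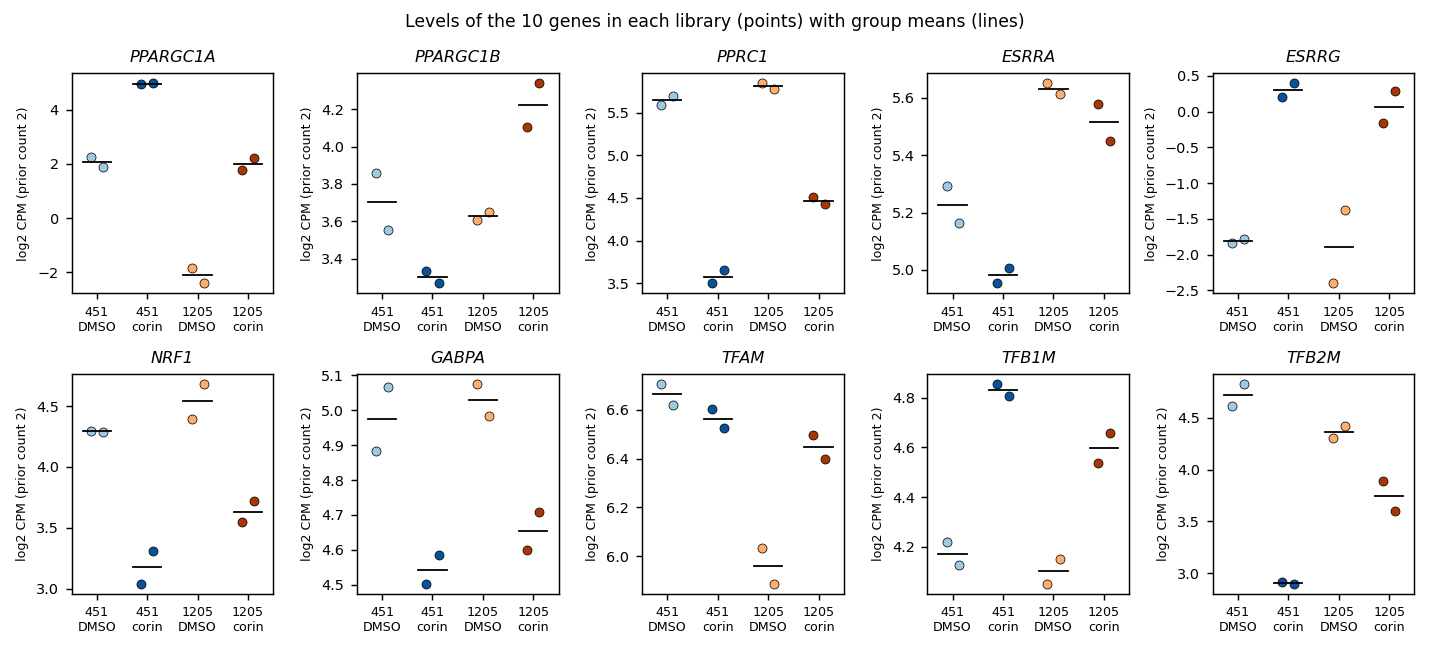
Level of each of the 10 genes in every library, as log2 CPM with a prior count of 2 (vertical axis, a separate scale for each gene), for 451Lu-R and 1205Lu-R with DMSO or corin; points are libraries and lines are group means. PPARGC1A is higher and PPRC1 lower in all corin libraries of both lines, and the lowest PPARGC1A points are the 1205Lu-R DMSO libraries, with 1 and 0 counts.

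The make-up of the coactivator transcripts changed with these shifts. In TPM, a level per exonic length on which genes can be compared within a library, the 3 coactivators summed in 451Lu-R to 39.1 ± 0.96 TPM (SD, n = 2) under DMSO against 19.7 ± 0.65 under corin. PPRC1 made up 85.6 ± 2.6% of that sum with DMSO and 34.8 ± 1.7% with corin, and PPARGC1A 3.89 ± 0.80% and 51.6 ± 0.90%. In 451Lu-R PPARGC1A thus became the most abundant of the 3 as PPRC1 fell, also with the longest transcript as the length (61.3% PPARGC1A and 27.4% PPRC1 with corin). In 1205Lu-R the sum was 42.8 ± 1.2 with DMSO and 23.7 ± 0.39 with corin. PPRC1 stayed the most abundant there, at 90.6 ± 0.45% with DMSO and 66.8 ± 4.1% with corin. In the same line PPARGC1B went from 9.35 ± 0.51% to 26.6 ± 2.7%, and PPARGC1A from 0.042 ± 0.059% to 6.55 ± 1.4%. TPM has a fixed total in each library and no TMM factor, so changes of the sums with corin can differ from changes in CPM. TFAM in 451Lu-R, for example, went from 78.3 to 63.7 TPM but from 101 to 94.4 CPM. The shares within a sum do not depend on that total.

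**Figure D2:**
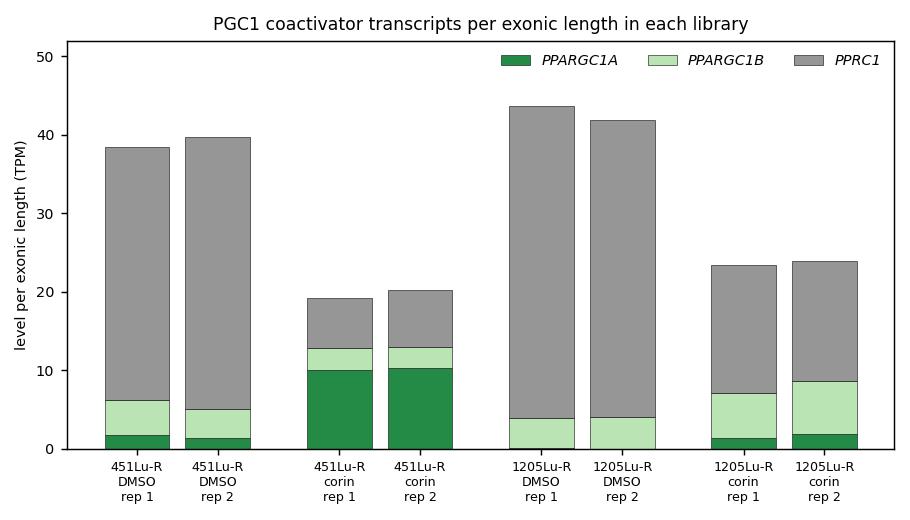
Stacked level per exonic length (TPM, vertical axis from 0) of PPARGC1A, PPARGC1B and PPRC1 in each library, by cell line, treatment and replicate (rep). The sum is lower in all 4 corin libraries, and PPARGC1A takes the largest part of the bar only in the 2 corin libraries of 451Lu-R.

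ESRRA, the estrogen-related receptor through which PPARGC1A acts on many respiratory genes, changed little. Its 451Lu-R level was 39.0 and 35.7 CPM under DMSO against 30.8 and 32 CPM under corin. The log2 fold change was -0.24 ± 0.077 (SE, edgeR adjusted p = 0.00875), a call that was lost with DESeq2 (adjusted p = 0.174) and without either first replicate of this line (edgeR adjusted p = 0.0766 and 0.0637). Its 1205Lu-R level was 50.1 and 48.7 CPM under DMSO against 47.6 and 43.5 CPM under corin, and its log2 fold change of -0.07 ± 0.065 (SE) did not pass the test (edgeR adjusted p = 0.329). TRMT112, which overlaps ESRRA on the other strand, had log2 fold changes of -0.74 (451Lu-R) and -0.33 (1205Lu-R), and the part of the shared exons in the ESRRA values was not tested. ESRRG, a receptor of high-energy tissues, was near the limit of detection. Its estimated counts in 451Lu-R were 1 and 1 under DMSO against 11 and 11.4 under corin, and those in 1205Lu-R 0 and 2.12 against 7 and 12. The corin libraries were above the DMSO libraries in both lines, with pooled ratios of 11 (95% counting interval 2.70 to 96.3) and 9.17 (2.21 to 81.2), but ESRRG did not pass the filter on low counts and so has no test within either line in the fits used here. Without the filter it was called higher in both lines (log2 fold change 3.31 and 3.04, edgeR adjusted p = 0.000325 and 0.0040), as it was in 1 fit of all 8 libraries (3.34 and 3.08, edgeR adjusted p = 0.000938 and 0.00267). Leaving out a DMSO library also let it pass the filter. Its log2 fold change was then 3.23 and 3.39 without the first and second 451Lu-R DMSO library. For 1205Lu-R it was 2.13 without the first, where ESRRG was not called, and 6.26 without the second. ESRRG entered all these fits through its corin counts or because the filter was off. Its calls there are therefore no separate support for a rise. The third receptor of the family, ESRRB, which is no member, had 0 counts in both 451Lu-R DMSO libraries and 19 and 22 counts under corin. Against a floor of 3 counts per library it was at least 6.88-fold higher. Its 1205Lu-R counts were 1 and 0 under DMSO, then 29 and 32 under corin, a pooled ratio of 58.9 (95% counting interval 10.2 to 2363).

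Both nuclear respiratory factors fell in both lines. NRF1, which acts on respiratory chain and mtDNA transcription genes, went from 19.4 and 19.4 CPM to 8.05 and 9.74 CPM in 451Lu-R, which is -1.12 ± 0.12 (SE) on the log2 scale (edgeR adjusted p = 8.36e-08). In 1205Lu-R it went from 20.8 and 25.5 CPM to 11.5 and 13 CPM, which is -0.86 ± 0.12 (SE) on the log2 scale (edgeR adjusted p = 1.19e-06). GABPA, the DNA-binding subunit of the ETS factor also called NRF2, fell less, from 29.3 and 33.3 CPM to 22.5 and 23.8 CPM in 451Lu-R and from 33.6 and 31.4 CPM to 24.1 and 25.9 CPM in 1205Lu-R. Its log2 fold changes were -0.42 ± 0.089 and -0.33 ± 0.083 (SE, edgeR adjusted p = 0.000263 and 0.00124), and the second missed the threshold with DESeq2 (adjusted p = 0.0548). ATP5PF, which overlaps GABPA, fell too, by 0.31 and 0.21 on the log2 scale. GABPB1, which encodes the partner subunit of GABPA, fell by 0.40 and 0.83 on the log2 scale (edgeR adjusted p = 0.000643 and 5.07e-08).

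The 3 factors that work inside mitochondria went separate ways. TFAM, which packages mtDNA and starts its transcription, was at 104 and 98.0 CPM in the 451Lu-R DMSO libraries and 97.0 and 91.8 CPM in the corin libraries, where it did not pass the test (log2 fold change -0.08 ± 0.046, SE, edgeR adjusted p = 0.116). The 1205Lu-R cells showed a rise from 65.3 and 59.0 CPM to 90.1 and 84.2 CPM, which is 0.53 ± 0.054 (SE) on the log2 scale (edgeR adjusted p = 1.03e-08). In 451Lu-R its call depended on the scaling, since with library size alone it was called lower (-0.18, edgeR adjusted p = 0.00169), as it was without the second DMSO library (-0.13, edgeR adjusted p = 0.0434). TFB2M, the factor that opens the mtDNA promoter with TFAM and the polymerase POLRMT, fell in both lines. It went from 24.2 and 28.2 CPM to 7.35 and 7.28 CPM in 451Lu-R, which is -1.82 ± 0.12 (SE) on the log2 scale (edgeR adjusted p = 4.77e-11). In 1205Lu-R it went from 19.5 and 21.2 CPM to 14.6 and 12 CPM, which is -0.57 ± 0.12 (SE) on the log2 scale (edgeR adjusted p = 0.000136). TFB1M, its paralog and a methyltransferase of the mitochondrial ribosomal RNA, rose in both. It went from 18.4 and 17.3 CPM to 28.8 and 27.8 CPM in 451Lu-R (log2 fold change 0.68 ± 0.089, SE, edgeR adjusted p = 8.06e-07) and from 16.4 and 17.6 CPM to 23.1 and 25.1 CPM in 1205Lu-R (0.56 ± 0.099, SE, edgeR adjusted p = 3.03e-05). The overlapping TIAM2 also rose in both lines (log2 fold change 0.62 and 0.37), and the part of the shared exons in the TFB1M values was not tested.

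Of the 10 genes, 9 were tested in 451Lu-R, of which 2 rose and 6 fell, where 41.3% of the 14530 genes tested rose and 38.6% fell. In 1205Lu-R 9 were tested, of which 4 rose and 4 fell, where 40.4% of 14563 genes rose and 37.8% fell. With most genes called, the number of members called was close to the background. With a change of at least 2-fold asked as well, 451Lu-R had 1 member higher and 3 lower (22.2% and 13.3% of all genes), against 1 and 1 in 1205Lu-R (22% and 9.8%). The member higher in 1205Lu-R by this rule was PPARGC1A, which entered that test only through its corin libraries. All 10 had corin libraries that did not overlap the DMSO libraries in CPM in either line, against 89.2% and 88.6% of all genes tested. The 10 include ESRRG, which was not tested, so the sets are not quite alike.

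**Figure D3:**
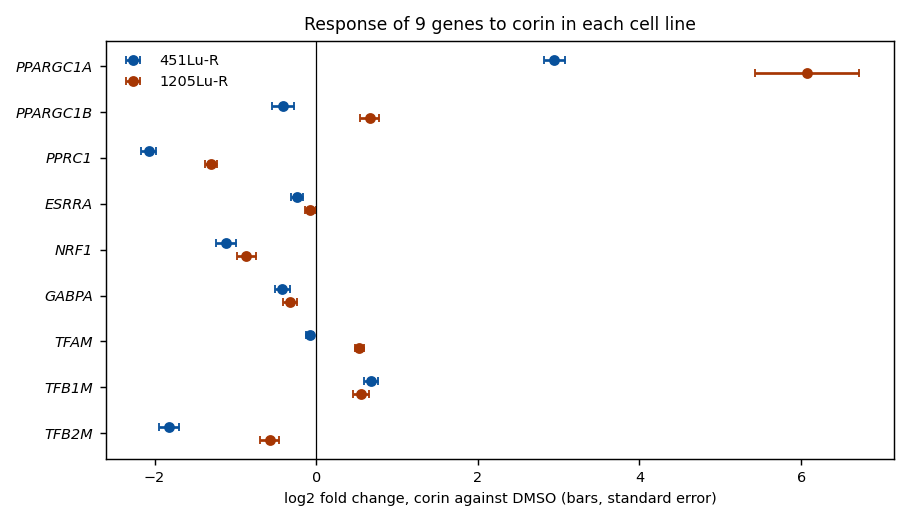
Log2 fold change of corin against DMSO (horizontal axis; bars, SE) for the 9 genes tested in each line, with 451Lu-R in blue and 1205Lu-R in brown. PPRC1, NRF1, GABPA and TFB2M lie left of 0 in both lines, PPARGC1A and TFB1M right of 0, and the value of PPARGC1A in 1205Lu-R (6.07) rests on DMSO libraries with 1 and 0 counts.

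The response differed between the lines for 5 of the 10 genes, by an interaction term in 1 edgeR fit of the 8 libraries. All 5 responses were higher in 1205Lu-R than in 451Lu-R, where 22.6% of the 16062 genes tested were higher and 27.1% lower. The difference was 0.58 ± 0.077 (SE) on the log2 scale for TFAM (adjusted p = 2.00e-06), 1.21 ± 0.18 for TFB2M (adjusted p = 6.58e-06), 0.73 ± 0.12 for PPRC1 (adjusted p = 3.52e-05) and 1.03 ± 0.19 for PPARGC1B (adjusted p = 7.95e-05). That is, TFB2M and PPRC1 fell less in 1205Lu-R, TFAM rose there, and PPARGC1B rose there and fell in 451Lu-R. For PPARGC1A the difference was 3.09 ± 0.85 (SE, adjusted p = 0.00464), a size that rests on the 1 and 0 counts of the 1205Lu-R DMSO libraries and ran from 2.25 to 5.43 when 1 library was left out. It missed the threshold with DESeq2 (3.40, adjusted p = 0.0534) and without the second 1205Lu-R DMSO library (2.25, edgeR adjusted p = 0.0647). At a difference of at least 2-fold, 3 members were higher and 0 lower, where 9.34% and 9.46% of all genes were. ESRRA, ESRRG, NRF1, GABPA and TFB1M did not pass, with differences between -0.26 and 0.21, though ESRRA passed with library size alone (0.34, edgeR adjusted p = 0.00692), a scaling that moved the median of all genes by 0.21.

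The lines were then compared within each treatment, on the same libraries as above. With DMSO, 3 of 9 members tested were higher in 1205Lu-R and 3 lower, where 41% and 41.5% of 14104 genes were. PPARGC1A was the member furthest apart, with 86 pooled counts in 451Lu-R against 1 in 1205Lu-R, a ratio of 84.6 (95% counting interval 14.8 to 3379, edgeR adjusted p = 2.18e-09). It passed the filter on low counts here only through its 451Lu-R libraries, so that call is no separate support for the difference. TFAM was lower in 1205Lu-R (log2 fold change -0.70 ± 0.055, SE, edgeR adjusted p = 1.77e-11), and so was TFB2M (-0.36 ± 0.099, SE, edgeR adjusted p = 0.00219). ESRRA was higher there (log2 fold change 0.41 ± 0.069, SE, edgeR adjusted p = 7.94e-06), as were PPRC1 (0.17) and NRF1 (0.26). The last pair and TFB2M missed the threshold with DESeq2 (adjusted p = 0.157, 0.183 and 0.0705), and PPRC1 and NRF1 also with library size alone (edgeR adjusted p = 0.335 and 0.180). PPRC1 missed it without the first DMSO library of either line (edgeR adjusted p = 0.229 and 0.114), and NRF1 without the first of 451Lu-R or the second of 1205Lu-R (edgeR adjusted p = 0.0596 and 0.375). PPARGC1B, GABPA and TFB1M overlapped between the lines and were not called, with log2 fold changes between -0.09 and 0.06. At a difference of at least 2-fold, 0 members were higher and 1, PPARGC1A, lower in 1205Lu-R (19.6% and 21.8% of all genes). Libraries of the lines did not overlap for 6 of the 10 members, with the untested ESRRG among the 10, against 90.2% of all genes tested.

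With corin, 5 of 10 were higher in 1205Lu-R and 3 lower, where 39% and 40.2% of 15363 genes were. PPARGC1A remained higher in 451Lu-R (log2 fold change -2.97 ± 0.13, SE, edgeR adjusted p = 3.01e-13). PPARGC1B and PPRC1 were higher in 1205Lu-R, with log2 fold changes of 0.96 ± 0.13 and 0.92 ± 0.11 (SE, edgeR adjusted p = 1.47e-06 and 3.59e-07), and so was TFB2M (0.87 ± 0.15, SE, edgeR adjusted p = 4.44e-05). ESRRA (0.55) and NRF1 (0.49) were also higher there. TFB1M was slightly lower (-0.22, edgeR adjusted p = 0.0186), and the difference in TFAM, -0.11, was at the edge of the threshold (edgeR adjusted p = 0.0488) and missed it with DESeq2, RLE or library size scaling, a mean of at least 1 CPM, all 8 libraries or the block (adjusted p between 0.0592 and 0.751), and without the first 451Lu-R or the second 1205Lu-R corin library (edgeR adjusted p = 0.267 and 0.521). Without the first 451Lu-R corin library NRF1 and TFB1M missed it too (edgeR adjusted p = 0.0820 and 0.0866), as did TFB1M without the first 1205Lu-R corin library (0.163). With DESeq2 both missed it as well (adjusted p = 0.0534 and 0.174). At a difference of at least 2-fold, 0 members were higher and 1 lower (18.6% and 19.9% of all genes), and libraries of the lines did not overlap for 9 of the 10 members, against 88.9% of all genes.

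Per exonic length, TFAM had the highest level of the 10 in 451Lu-R with either treatment (78.3 ± 3.3 TPM under DMSO and 63.7 ± 2.2 under corin, SD, n = 2) and in 1205Lu-R with corin (72.5 ± 3.5). In 1205Lu-R with DMSO ESRRA was first at 67.3 ± 1.2, and TFAM (49.8 ± 3.5) and TFB2M (48.3 ± 2.9) did not differ beyond their spread. The same held there for GABPA (23.9 ± 1.1) and NRF1 (23.8 ± 3.5) and for ESRRG and PPARGC1A at the bottom of the order. In 451Lu-R with corin it held for TFB2M (14.6 ± 0.028) and GABPA (14.4 ± 0.64) and for NRF1 (7.70 ± 1.1) and PPRC1 (6.88 ± 0.57). PPARGC1A was ninth with DMSO in 451Lu-R (1.52 ± 0.28) and sixth with corin (10.2 ± 0.16). Its rank with corin was 4 in place of 6 when the longest transcript was used as the length. With that length, TFAM and ESRRA also exchanged places in 1205Lu-R with corin, as did TFB2M and TFB1M. NRF1 moved ahead of GABPA in 1205Lu-R with DMSO. In 451Lu-R with DMSO, ESRRA moved ahead of TFB2M, and TFB1M went from rank 7 to 5. TFB2M went from rank 4 to 6 in 451Lu-R with corin.

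The genes most like the coactivators were sought by the root mean square difference of log2 CPM, each centred on its mean, over the 8 libraries and 12905 protein-coding genes. Nearest to PPARGC1A was EDIL3 (distance 0.21, where PPARGC1A itself varied by 2.53 about its mean), followed by CHRNA7 (0.29) and PCSK2 (0.32). EDIL3 in 451Lu-R was at 4.51 ± 0.83 CPM (SD, n = 2) under DMSO against 31.8 ± 3.1 under corin, and at 0.0943 ± 0.13 and 3.82 ± 0.29 in 1205Lu-R. Both EDIL3 and PPARGC1A were near the limit of detection in 1205Lu-R with DMSO. Their log2 CPM there, and so the distance and the spread of PPARGC1A, depend on the prior count. With a prior count of 0.5 in place of 2, EDIL3 stayed first, and NPPC and CBLN1 came next. Nearest to PPRC1 were NFKB1 (0.08), POLE3 (0.11) and URM1 (0.12), and nearest to PPARGC1B were CBARP (0.08), RNF44 (0.10) and RUNX1 (0.11).

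MITF and PPARGC1A moved in opposite directions in 451Lu-R and in the same direction in 1205Lu-R. In 451Lu-R MITF fell from 762 and 780 CPM to 296 and 293 CPM (log2 fold change -1.37 ± 0.024, SE, edgeR adjusted p = 2.44e-20), while PPARGC1A rose. In 1205Lu-R MITF rose from 8.39 and 6.58 CPM to 15.8 and 14.4 CPM (1.05 ± 0.14, SE, edgeR adjusted p = 7.13e-07), as did PPARGC1A. The response of MITF differed between the lines (interaction 2.38 ± 0.15 on the log2 scale, SE, edgeR adjusted p = 1.39e-11). The 7 melanocytic markers, MITF among them, had 1 of 7 higher and 6 lower in 451Lu-R, and the 5 undifferentiated markers, with the sums given above, had 5 of 5 higher there and 4 of 5 lower in 1205Lu-R. The part of either marker list in the PPARGC1A values was not tested.

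The list of 32 regulators of PGC1 coactivators had 16 genes higher and 11 lower in 451Lu-R, against 13 higher and 11 lower in 1205Lu-R. Its median log2 fold changes were 0.24 and 0.09, beside 0.03 for all genes in each line. These counts, like those of the lists that follow, are to be read against all genes, of which 41.3% were higher and 38.6% lower in 451Lu-R. The shares were 40.4% and 37.8% for 1205Lu-R, and the regulators were near them in this line, with somewhat more genes higher in 451Lu-R. PRKAA2, a catalytic subunit of the energy sensor AMPK, rose most among them in both lines, from 3.76 and 3.72 CPM to 20.2 and 18.8 CPM in 451Lu-R (log2 fold change 2.40 ± 0.15, SE) and from 2.64 and 3.83 CPM to 34.2 and 35.3 CPM in 1205Lu-R (3.48 ± 0.14, SE). MEF2C, a MADS-box activator of PPARGC1A, rose by 1.82 and 2.96 on the log2 scale. SIRT1, the deacetylase that activates PGC1α protein, rose by 0.32 and 0.52. MYC had a log2 fold change of -2.69 and MYBBP1A, a repressor that binds PGC1α, of -2.41 in 451Lu-R, where they were the largest falls of the list. KAT2A, the acetyltransferase that restrains PGC1α, had the largest fall in 1205Lu-R (-1.30), followed by TFE3 (-1.09). TFEB did not pass in either line (-0.31 and 0.30), and NRIP1, a corepressor of oxidative genes, had 0.16 (not called) in 451Lu-R and -0.29 (called lower) in 1205Lu-R.

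**Figure D4:**
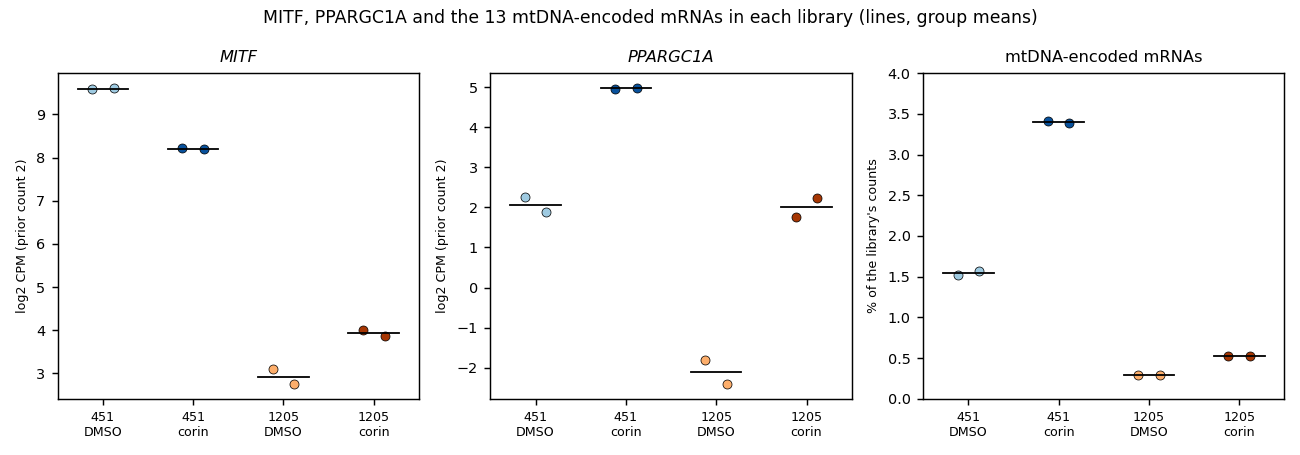
MITF and PPARGC1A as log2 CPM with a prior count of 2, and the share of a library's counts in the 13 mtDNA-encoded mRNAs (percent, axis from 0), in each library; lines are group means. MITF falls with corin in 451Lu-R and rises in 1205Lu-R, PPARGC1A rises in both, and the mtDNA share rises from 1.55% to 3.40% in 451Lu-R and from 0.294% to 0.525% in 1205Lu-R.

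The transcripts of mtDNA itself, which TFAM, TFB2M and POLRMT are known to produce, rose in both lines. All 13 mtDNA-encoded mRNAs were called higher with corin in each, with a median log2 fold change of 1.33 (range 0.54 to 1.61) in 451Lu-R and 0.77 (0.64 to 1.09) in 1205Lu-R. Their summed share of the 451Lu-R counts was 1.52% and 1.57% under DMSO against 3.41% and 3.39% under corin, and 0.295% and 0.294% against 0.524% and 0.526% in 1205Lu-R. MT-ND6 was by far the lowest of them. In 1205Lu-R its libraries held 8.29 and 11 counts under DMSO and 13 and 28 under corin, so its fold change there is uncertain. MT-ND4, a subunit of complex I, went from 1896 and 1963 CPM to 5801 and 5765 CPM in 451Lu-R and from 340 and 341 CPM to 563 and 567 CPM in 1205Lu-R. The rise was smaller in 1205Lu-R for 11 of the 13 and larger for MT-ND3 (interaction 0.25 ± 0.074, SE, edgeR adjusted p = 0.00677), with a median difference of -0.60. All 13 were lower in 1205Lu-R than in 451Lu-R, with medians of -2.18 with DMSO and -2.84 with corin. The mitochondrial ribosomal RNAs moved with them, from 1.46% and 1.5% of counts to 2.48% and 2.46% in 451Lu-R and from 0.0825% and 0.0830% to 0.181% and 0.180% in 1205Lu-R. Libraries were made from polyadenylated RNA, mitochondrial genes overlap each other, and nuclear copies of mtDNA can share reads with them, so single mtDNA genes are uncertain.

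In the machinery that copies and transcribes mtDNA, more genes fell than rose. Of 18 such genes, TFAM, TFB1M and TFB2M included, 451Lu-R had 4 higher and 10 lower (median -0.29), against 5 higher and 11 lower in 1205Lu-R (median -0.47). TWNK, the mtDNA helicase, had log2 fold changes of -1.83 and -0.47, and POLRMT, the mtDNA RNA polymerase, of -0.16 and -0.87. POLG, the mtDNA polymerase, rose by 0.50 and 0.27, and POLG2, its accessory subunit, by 0.59 and 1.05. MTERF3, a repressor of mtDNA transcription, had the largest rise in 1205Lu-R (1.25).

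Most nuclear genes for mitochondrial protein import and translation fell. Of 28 import genes, 451Lu-R had 1 higher and 23 lower (median -0.50), against 4 higher and 23 lower in 1205Lu-R (median -0.56). TIMM50, a receptor of the inner membrane translocase, fell from 614 and 619 CPM to 131 and 126 CPM in 451Lu-R, TIMM21 had the largest fall in 1205Lu-R (-1.84), and TOMM6 fell in both (-1.89 and -1.61). TOMM20, the outer membrane receptor often used as a measure of mitochondrial mass, had 0.01 (not called) and 0.17 (called higher). Of 78 mitochondrial ribosomal protein genes, 451Lu-R had 6 higher and 61 lower (median -0.52), against 12 higher and 56 lower in 1205Lu-R (median -0.35). MRPS31 rose in both lines (0.57 and 0.65), while MRPL16 (-1.58) and MRPS7 (-1.61) had the largest falls in 451Lu-R and 1205Lu-R. Of 13 genes of mitochondrial fusion and fission, 451Lu-R had 4 higher and 8 lower, against 4 and 7 in 1205Lu-R, with the fusion protein MFN2 lower in both (-0.62 and -0.76) and GDAP1 higher in both (0.44 and 1.10).

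**Figure D5:**
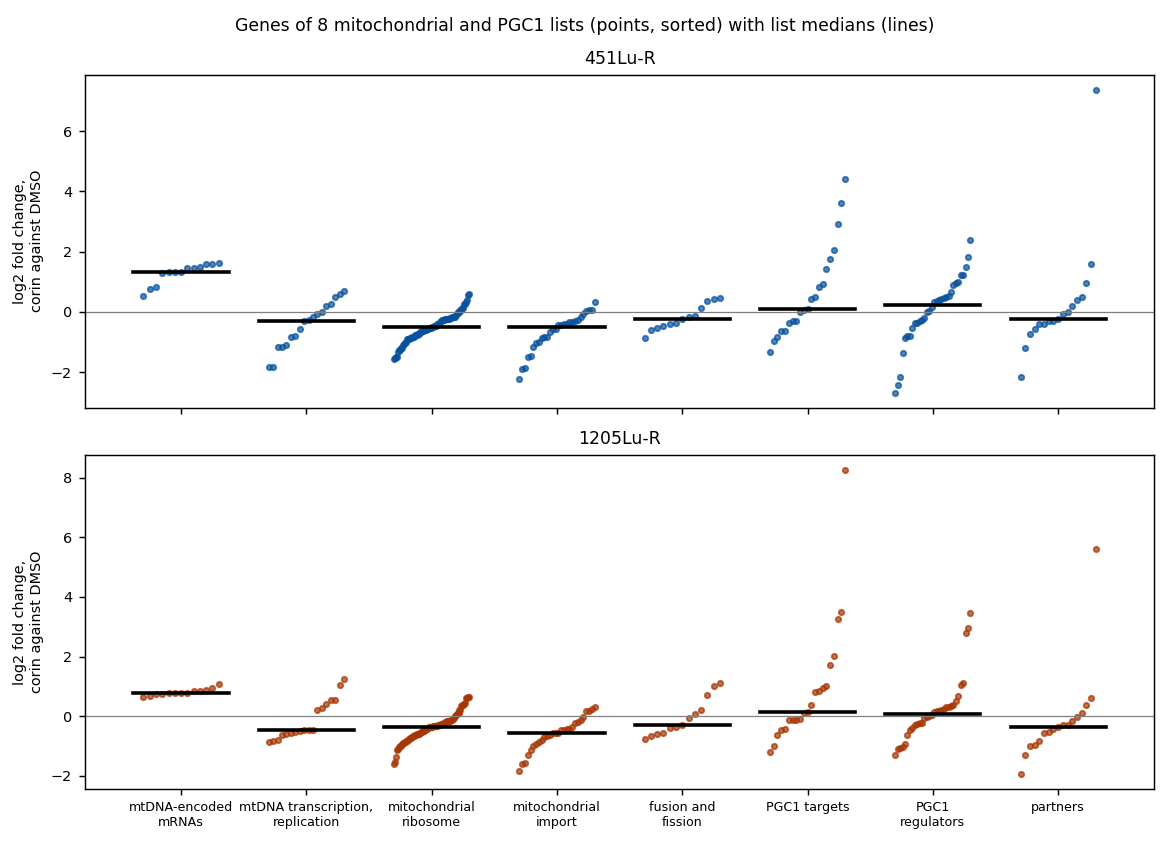
Log2 fold change of corin against DMSO (vertical axis) for the tested genes of 8 lists in the 451Lu-R panel (above) and the 1205Lu-R panel (below); points are genes, sorted within a list, and black lines are list medians. The mtDNA-encoded mRNAs lie above 0 throughout, with medians of 1.33 and 0.77, while the medians of the mitochondrial ribosome and import lists are below 0 in both lines.

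Target genes of PGC1 in metabolism and in the removal of reactive oxygen species were split. In each line 21 were tested, with 11 higher and 7 lower and medians of 0.11 and 0.15. Of 20 tested in both lines, 9 were called higher in both, 4 lower in both and 2 in opposite directions. The median in 1205Lu-R is the same with PDK4 at its bound. CPT1A, which brings fatty acids into mitochondria, rose from 15.6 and 17.7 CPM to 66.3 and 69.7 CPM in 451Lu-R and from 34.4 and 35.8 CPM to 59.0 and 62.9 CPM in 1205Lu-R. CYCS, which encodes cytochrome c, rose by 0.83 and 0.81 on the log2 scale. PDK4, the kinase that shifts cells from glucose to fatty acid use, went from 10 and 4 counts to 97 and 74 in 451Lu-R (log2 fold change 3.60) and from 0 and 0 counts to 35 and 41 in 1205Lu-R, at least 12.2-fold higher against 3 counts per library. CKMT1B, a mitochondrial creatine kinase, rose by 2.93 and 3.51 on the log2 scale, but it has a near-identical copy, CKMT1A, so its counts are uncertain. TXNRD2, the mitochondrial thioredoxin reductase, had log2 fold changes of -1.35 and -1.0. VEGFA, the angiogenic growth factor, fell in 1205Lu-R from 223 and 234 CPM to 97.8 and 92.8 CPM (log2 fold change -1.21), and rose in 451Lu-R from 10.4 and 10.4 CPM to 15.3 and 13.2 CPM (0.48, edgeR adjusted p = 0.00198).

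Among 18 other partners of these factors, 17 were tested in each line, with 6 higher and 8 lower in 451Lu-R, against 3 and 11 in 1205Lu-R. HCFC1, a host cell factor that binds PGC1 coactivators and GABP, fell from 144 and 147 CPM to 31.7 and 31.9 CPM in 451Lu-R and from 187 and 188 CPM to 48.2 and 47.1 CPM in 1205Lu-R. PPARD, a lipid-sensing nuclear receptor, rose in both (0.95 and 0.62), THRB, a thyroid hormone receptor, had log2 fold changes of 1.59 (451Lu-R) and -0.30 (1205Lu-R), and PPARG had the largest fall after HCFC1 in 1205Lu-R (-1.32).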

How the data were processed

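RNA-Seq of polyadenylated RNA from 451Lu-R and 1205Lu-R cells was used. Per the methods, adapters were removed by trimmomatic, and salmon with the GENCODE 32 transcripts gave values that the authors summed per gene. Tool versions and read strand are not given in the sources used here. What the authors deposited for 8 libraries are expected counts (estimated reads of a gene), not normalized. For the 8 samples with PLX4032 they deposited tables of their own log2 fold changes and adjusted p-values, which were not used.

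Of 34228 genes, 34052 were matched to a name in GENCODE 44. Counts were rounded and tested with edgeR 4.0.16 in R 4.3.3 (filterByExpr, TMM, glmQLFit and glmQLFTest, 2-sided, Benjamini-Hochberg adjustment over all genes tested, adjusted p under 0.05). SE is the log2 fold change divided by the root of F. Corin was compared with DMSO within each line on 4 libraries, the lines within each treatment on 4, and the difference in response by an interaction on 8. The comparisons share libraries. Levels per length used the union of GENCODE 44 exons. Groups with 3 counts or fewer in each library were treated as at the floor. TMM factors ran from 0.959 to 1.04. Between replicates the chi-square of the counts over its degrees of freedom was 1.34 to 1.40. Intervals on counts cover counting error only.

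The members, gene lists and motifs were chosen with earlier results of these data known. All members are named, and of each list the 2 largest rises and 2 largest falls at an adjusted p under 0.05 and a mean of at least 1 CPM, plus MITF, SIRT1, PRKAA2, NRIP1, TFEB, ESRRB, GABPB1, POLRMT, POLG, TWNK, CYCS, CPT1A, MFN2 and TOMM20. Not all genes that this rule allows are written out, and genes overlapping members and MT-ND4 were added. SOD2 and CD3E, on the lists, were not matched. The fits were tested on simulated data with changes put only into genes whose mean counts were well above the floor, so genes near it were not covered. Alternatives were DESeq2 1.42.0, scaling by RLE or by library size alone, testing without the filter or above a mean of 1 CPM, all 8 libraries in 1 fit, a replicate block, other call rules and leaving out each library in turn.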

Additional observations from a re-analysis of the deposited data

Results flagged for a closer look

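Of the 10 genes, 5 had a response to corin that differed between the cell lines by an interaction term in edgeR's quasi-likelihood test, given in log2 units with a positive value where 1205Lu-R had the higher response. The differences were 3.09 for PPARGC1A (adjusted p = 0.00464), 1.03 for PPARGC1B (adjusted p = 7.95e-05), 0.73 for PPRC1 (adjusted p = 3.52e-05), 0.58 for TFAM (adjusted p = 2.00e-06) and 1.21 for TFB2M (adjusted p = 6.58e-06). The value for PPARGC1A is uncertain: it rests on 1 and 0 counts in the 1205Lu-R DMSO libraries, ran from 2.25 to 5.43 with 1 library left out, and missed the threshold with DESeq2 (3.40, adjusted p = 0.0534) and without the second 1205Lu-R DMSO library (2.25, adjusted p = 0.0647). PPARGC1A was higher with corin in 2 of 2 libraries of both lines, PPARGC1B was lower in 451Lu-R and higher in 1205Lu-R, and PPRC1 and TFB2M were lower in both.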

How the results depend on the processing

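Each member's value was recomputed under the alternatives, 545 values in all. Of these, 501 kept their direction and side of the threshold, 31 lost the call, 4 gained one and 9 changed sign. The sign changes were ESRRA in 1205Lu-R (0.00453), GABPA between the lines with DMSO (-0.0434) and TFB1M in the interaction (0.0475) with library size only. Others came from leaving out a library. Between the lines with DMSO, GABPA ran from -0.0451 to 0.15 and PPARGC1B from -0.23 to 0.0668, with the sign changed without the first 451Lu-R DMSO library. Between the lines with corin, ESRRG ran from -0.53 to 0.0125, changed without the first 1205Lu-R corin library. In the interaction, GABPA ran from -0.0447 to 0.14, changed without the second DMSO library of either line (-0.0447 and -0.0113), and ESRRG from -1.22 to 2.92, changed without the second 1205Lu-R DMSO library. None of these was called in either setting, and the cause was not tested. Library size only moved the median of all genes by -0.11 between the lines with DMSO and by 0.21 in the interaction.

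A change of at least 2-fold left 1 member higher and 3 lower for 451Lu-R, 1 and 1 for 1205Lu-R, 0 and 1 between the lines with either treatment, and 3 higher in the interaction. An adjusted p under 0.001 with at least 4-fold left 1 and 1 for 451Lu-R, 1 and 0 for 1205Lu-R, 0 and 1 between the lines with either treatment, and 0 in the interaction. With DESeq2 or library size only, 1 member was higher between the lines with DMSO and 1 lower with corin. Leaving out a library gave 2 to 3 higher and 4 to 7 lower for 451Lu-R, 4 to 5 and 4 to 4 for 1205Lu-R, 1 to 3 and 3 to 3 between the lines with DMSO, 4 to 5 and 1 to 3 with corin, and 4 to 5 higher in the interaction. The lowest counts were without the first 451Lu-R DMSO library (1 higher, lines with DMSO) and without the first 451Lu-R corin library (1 lower, lines with corin). These fits leave 1 sample in a group, which is assumed to vary like the others.

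The replicate number was tried as a block. Libraries with the same number deviated from their group means at a correlation of -0.0215 for 451Lu-R libraries and 0.0091 for those of 1205Lu-R, so the numbers do not pair the samples. The replicate block gave 11500 calls over all genes in 451Lu-R against 11612 without it, 11418 against 11396 in 1205Lu-R, and 7731 against 7984 in the interaction. At this depth, PPARGC1A with DMSO in 1205Lu-R and ESRRG with DMSO in both lines were at the limit of detection.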
